A study of Canis lupus familiaris with 13 samples.

Results

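MDM2 and 8 genes that p53 switches on under stress were examined in 13 untreated primary soft tissue sarcomas of dogs, tumours of connective tissue. The genes were taken from a named list (MDM2, CDKN1A, SESN1, SESN2, TP53INP1, GADD45A, BAX, PMAIP1 and BBC3), and every probe set of the array whose annotated symbol is in that list was read. Of the 9 genes, 6 had probe sets, 15 in all among the 42924 tested, and GADD45A, PMAIP1 and BBC3 had none named here and were not analysed. The metastatic group held 5 tumours (MET1 to MET5) and the non-metastatic group 8 tumours (NM1 to NM8), the latter followed for at least 1 year without metastasis. The labels give neither breed, tumour subtype nor age, nor say whether each tumour came from a separate dog, so the spread behind each p-value is that among these tumours and may be partly technical.

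p53 is a transcription factor that stays scarce in unstressed cells because MDM2, a ubiquitin ligase, marks it for destruction. DNA damage or oncogene activity frees p53, which then raises its target genes, MDM2 among them, so that the inhibitor is also a readout of the pathway. Of the other targets, CDKN1A (p21) blocks cyclin-dependent kinases and halts the cell cycle, SESN1 and SESN2 (sestrins) restrain mTORC1 and oxidative damage, and TP53INP1 favours autophagy and p53-dependent death. BAX permeabilises the mitochondrial outer membrane in apoptosis. In bulk tumour RNA, fewer cells of a type and less RNA per cell cannot be told apart.

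Array medians lay between 6.71 and 6.94 on the log2 scale. Spike-in control transcripts, added before labelling, divided the arrays into batch A (all 5 metastatic tumours and NM5 to NM8), batch B without spike-in signal (NM1, NM3 and NM4) and batch C (NM2). These batches were read from the controls and not from the labels, and only batch A holds both groups. In batch B the spike-in probe sets, which then have no target, gave values from 2.63 to 7.16, so a value up to 7.16 cannot be told apart from that range. The mesenchymal markers VIM, COL1A1, COL1A2 and COL3A1 averaged 13.14 to 13.60 in both groups and COL6A3 10.93 to 10.94. The epithelial markers CDH1 and EPCAM averaged 4.82 to 5.06, with EPCAM reaching 7.14 in MET5 and nearly that in NM2. Of the 26 measured markers of mesenchymal, macrophage, T, B, endothelial, muscle and epithelial cells, 0 passed the test between the groups. Over all probe sets the share was 4.9%, so this count does not show equal composition. All 3 measured muscle markers had positive differences (metastatic minus non-metastatic, median 1.13), with MYH2 at 9.28 and TNNT3 at 8.55 in MET5. Of the 5 macrophage markers 4 had negative differences (median -0.39), with CD163 at 6.86 in MET2 against 8.14 to 11.39 in non-metastatic tumours.

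Of the 6 genes, 2 were lower in metastatic tumours (SESN1 and TP53INP1), 0 were higher and 4 did not pass the test at the probe set chosen to represent the gene, the one with the highest mean. The background was 4.9% of all probe sets called in either direction and 3.34% called lower (limma, adjusted p under 0.05). That background includes dim probe sets. Among the 21466 left by a filter on low values, 1951 were called, 1520 of them lower, which is a larger share. All but SESN2 had negative differences (metastatic minus non-metastatic), and the median over the 6 genes was -0.69, against 0.05 over all probe sets. Both calls rest on few tumours: at the chosen probe sets 0 of the 6 genes passed within batch A, where 2.78% of probe sets were called and 2.2% were called lower. The call of TP53INP1 also rests on values that all lay under 7.16.

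**Figure D1:**
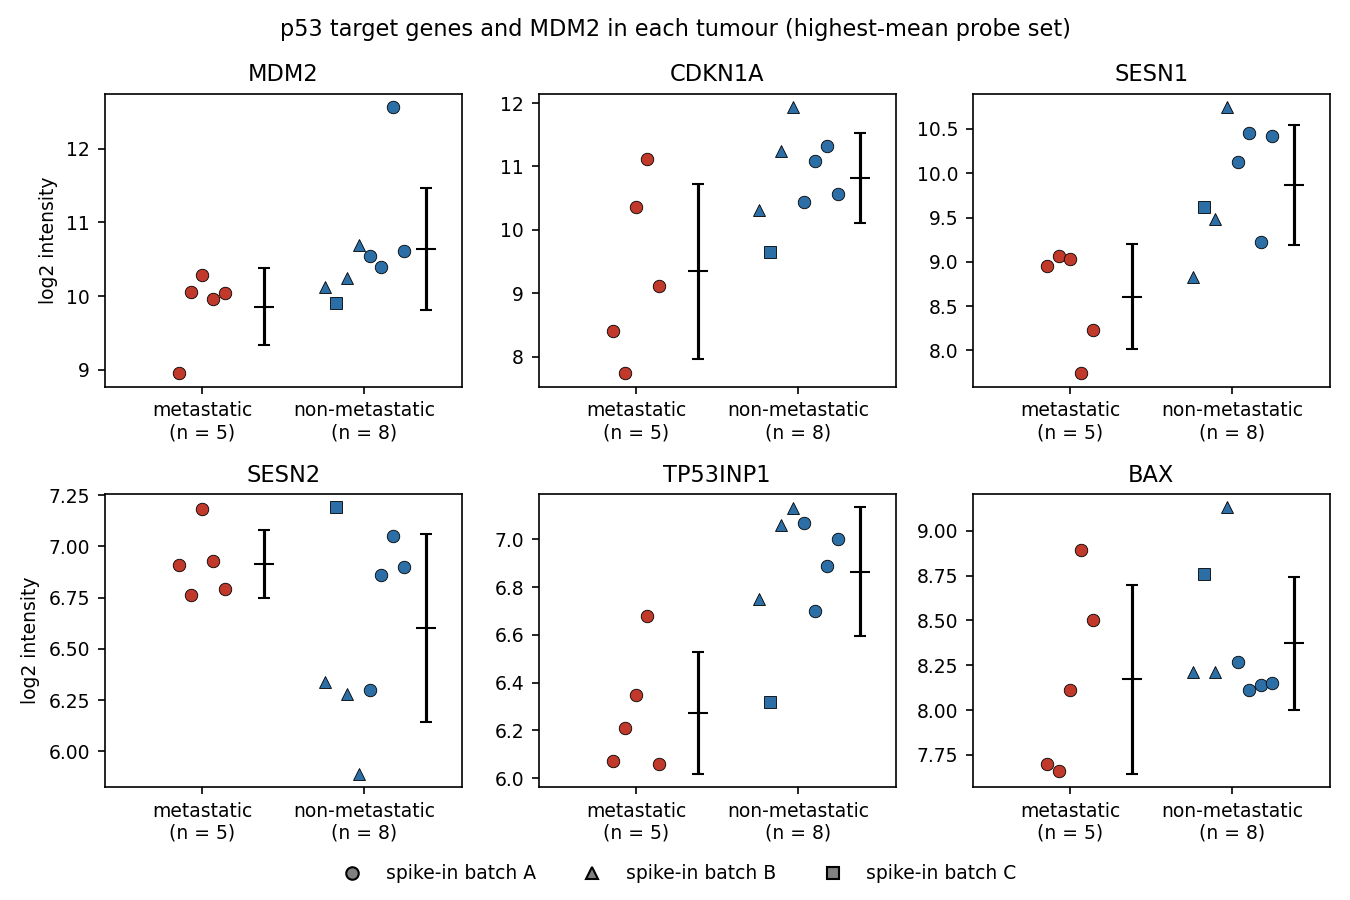
Log2 intensity of MDM2, CDKN1A, SESN1, SESN2, TP53INP1 and BAX in each tumour at the chosen probe set, by group, with the marker shape giving the spike-in batch and the bar the mean and SD. MDM2 in NM7, at 12.57, stands above every other tumour, and 7 of 8 non-metastatic SESN1 values lie above the highest metastatic one.

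MDM2 itself was at 8.95, 10.05, 10.28, 9.96 and 10.04 in MET1 to MET5. In the non-metastatic tumours it ran from 9.91 through a median of 10.48 to 12.57. MET1 lay below all other tumours and NM7 above them, and the remaining values of the groups overlapped. The means were 9.86 ± 0.52 (SD, n = 5) and 10.64 ± 0.82 (n = 8), a difference of -0.78 ± 0.37 (SE) with a 95% interval from -1.59 to 0.02, which did not pass (limma adjusted p = 0.221). The other MDM2 probe sets differed by -1.09 and -1.10 and did not pass either (limma adjusted p = 0.181 and 0.159). Their values moved with those of the chosen one, with correlations of 0.95 to 0.99 between the 3 probe sets over the arrays.

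Within batch A the MDM2 difference was -1.18 ± 0.46 (SE, limma adjusted p = 0.2). There every metastatic value lay below every non-metastatic one at all 3 probe sets, at most 10.28 against at least 10.40 at the chosen one. This held for 9 of the 15 probe sets of the 6 genes, against a background of 4.94% of all probe sets within that batch. The 9 were 3 of MDM2, 5 of SESN1 and 1 of TP53INP1. Probe sets of the same gene are repeat readings, correlated at 0.95 to 0.99 for MDM2 and 0.80 to 0.98 for SESN1. The 9 are thus not independent, and their share is no measure of how unusual the separation is. NM7 carried part of the size of the difference: without it the MDM2 difference was -0.51 over all tumours and -0.66 within batch A.

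The level of MDM2 in NM7 came with high levels of many genes near it. In the dog MDM2 lies on chromosome 10, and the order of its neighbours was taken from the RefSeq annotation of assembly UU_Cfam_GSD_1.0. In some human sarcomas, well-differentiated and dedifferentiated liposarcoma above all, MDM2 is amplified together with neighbouring genes. DNA copy number was not measured here.

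NM7 was picked because its MDM2 value was the highest, so MDM2 in this tumour is a description, and its neighbours are given as values with no test. The stretch described runs between the outermost high genes, CAND1, 10 genes before MDM2, and RAB3IP, 11 genes after it. Its ends were thus set by these values, and the counts in it are no measure of how unusual it is. Besides MDM2, 17 genes of the stretch were measured, and in 10 of them NM7 lay at least 1 log2 unit above the median of the other 12 tumours. NM7 was the highest of the 13 tumours for 11 of the 17.

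MDM1, a centriole protein 4 genes before MDM2, was at 11.27 in NM7 and between 7.21 and 8.68 in the other tumours. NUP107, a nuclear pore subunit, was at 11.49 against 7.53 to 9.10. The adaptor FRS2, which couples FGF receptors to ERK signalling, was at 11.63 against 7.23 to 9.83. YEATS4, a reader of acetylated histones, was at 10.98 against 7.28 to 8.47. For these 4 genes the value in NM7 exceeded the highest of the other tumours by 1.80 to 2.59.

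The remaining high genes were CAND1, DYRK2, RAP1B, SLC35E3, CCT2 and RAB3IP. DYRK2, a kinase known to phosphorylate p53, was at 10.27 against 8.23 to 9.53. RAB3IP, a Rab8 exchange factor and the last high gene on its side, was at 11.41 against 6.41 to 9.23. CAND1, an exchange factor of cullin ligases and the last on the other side, was at 12.48 against 9.30 to 10.84.

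Outside this stretch most genes of NM7 lay within the range of the other tumours. GRIP1, next to CAND1, was at 7.16 in NM7 against a median of 7.05 in the others, which is within the range without a target. CNOT2, 13 genes after MDM2, was at 8.66 against 8.62. CDK4, the cell cycle kinase 49 genes before MDM2, was at 10.87 in NM7 and between 9.98 and 11.83 in the others. Of the 61 measured genes farther than 11 and within 60 genes of MDM2, 1 (MAPK8IP2, by 1.43) lay at least 1 log2 unit above the median of the others. NM7 was the highest tumour for 7 of these 61 genes, against 7.63% of all named genes, and the lowest for 4. IRAK3, 13 genes before MDM2, was 0.99 above the median, at 8.25 against 6.68 to 8.09. Inside the stretch 7 genes were not raised by that much. CPSF6, 2 genes after MDM2, was 0.50 above the median of the others, LYZ (lysozyme) was 1.08 below it, and the cytokine genes IFNG, IL26 and IL22 with LRRC10 and BEST3 lay within 0.29 of it. In NM7 IFNG, IL26, IL22 and LRRC10 were under 7.16, from 5.57 to 7.13, and BEST3 was at 7.26. At that level these genes say little on whether the stretch is interrupted.

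Of the 10 measured genes in a list of MDM2 neighbours, CDK4 among them, 0 passed between the groups, against 4.9% of all probe sets. At the chosen probe sets all 10 had negative differences, and the median was -0.42 (-0.82 within batch A). NM7 set the size of this median: without it the median was -0.15 (-0.14 within batch A), and SLC35E3 and YEATS4 had positive differences (0.11 and 0.25).

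**Figure D2:**
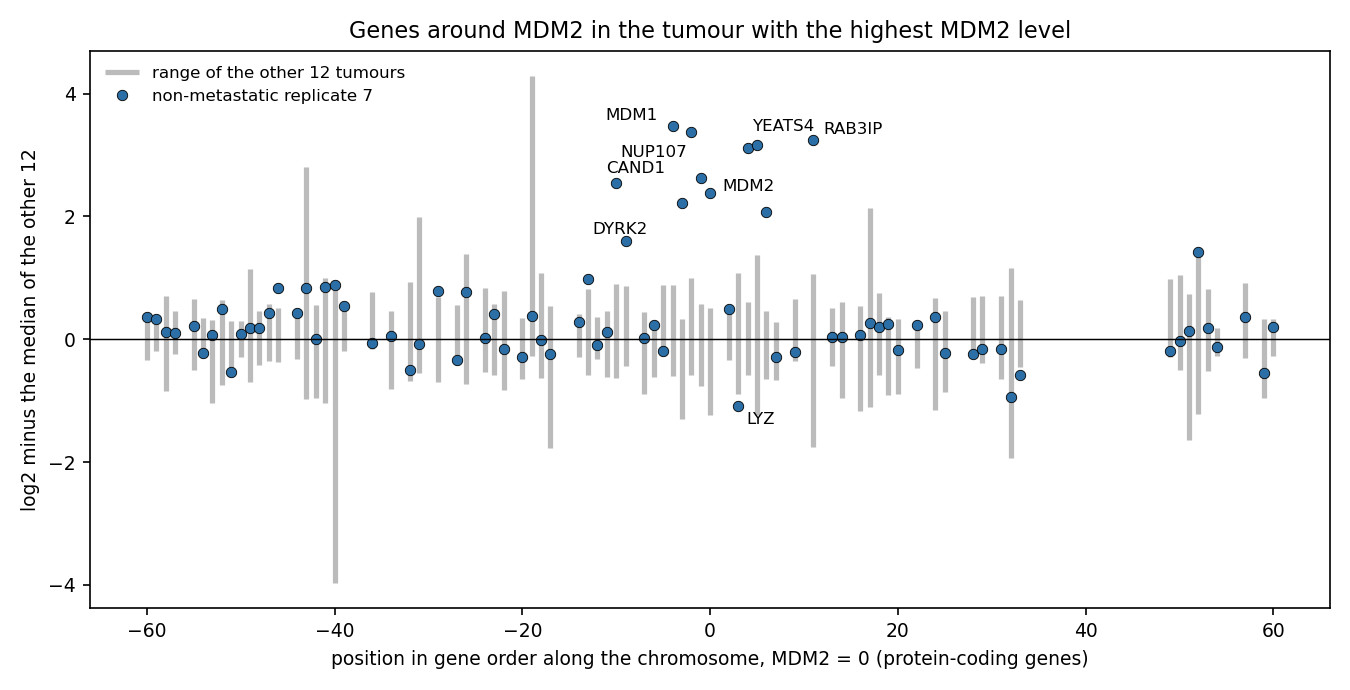
For each measured gene within 60 protein-coding genes of MDM2, the log2 level in NM7 minus the median of the other 12 tumours (points), with the range of those 12 tumours around their median (grey bars), against position in gene order. The raised genes run from CAND1 to RAB3IP, with genes that were not raised among them, and MDM1 lies 3.47 and MDM2 2.39 above the median.

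At the chosen probe sets CDKN1A differed between the groups by more than MDM2 did. Its SD there exceeded that of MDM2 in metastatic tumours (1.38 against 0.52) but not in non-metastatic ones (0.71 against 0.82). Its values were 8.41, 7.74, 10.36, 11.11 and 9.11 in MET1 to MET5, and ran from 9.66 through a median of 10.82 to 11.94 in non-metastatic tumours. MET1, MET2 and MET5 lay below all non-metastatic tumours, while MET3 and MET4 lay among them. The difference was -1.48 ± 0.51 (SE), with a 95% interval from -2.58 to -0.38 and a limma adjusted p of 0.109, so it did not pass. The other 2 probe sets differed by -0.83 and -0.71 and did not pass (limma adjusted p = 0.207 and 0.213), with metastatic means not above 7.16. These differences were smaller than those of the other MDM2 probe sets (-1.09 and -1.10). Within batch A the difference was -1.51 ± 0.64 (SE, limma adjusted p = 0.228).

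A single tumour decided whether CDKN1A passed: without MET4 the difference was -1.92 with a limma adjusted p of 0.0387. The 3′ minus 5′ signal of the ACTB control, which rises as RNA degrades, was highest in MET2 (2.87) and NM2 (3.14), the tumours with the least CDKN1A in their groups. In the metastatic group MET3 and MET4, at 1.4 and 1.46, had 10.36 and 11.11 of CDKN1A. MET1 and MET5, at 1.99 and 2.08, had less, 8.41 and 9.11. The non-metastatic tumours NM3 and NM4, at 0.39 and 0.88, had 11.24 and 11.94. Against this order NM1, at 0.64, had 10.32 and NM6, at 2.24, had 11.08. A correlation of the ACTB signal with CDKN1A was not tested. With the ACTB signal as a covariate the CDKN1A difference was -1.10 ± 0.44 (SE, limma adjusted p = 0.201).

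SESN1 was lower in metastatic tumours at all 5 of its probe sets and passed the test at 4. At the chosen one the values were 8.95, 9.07, 9.03, 7.74 and 8.23 in MET1 to MET5. Non-metastatic tumours ran from 8.83 through a median of 9.88 to 10.75, and only NM1 lay below the highest metastatic tumour. The means were 8.60 ± 0.59 (SD, n = 5) and 9.86 ± 0.68 (n = 8), so SESN1 fell by 1.26 ± 0.34 (SE, limma adjusted p = 0.0463), a 2.39-fold lower level. At 3 other probe sets the falls were larger, at -1.56, -1.60 and -1.52 (limma adjusted p = 0.019, 0.0171 and 0.0265), and every metastatic value was below every non-metastatic value. At the first of these the metastatic mean, 7.04, was not above 7.16, so its size is uncertain. Such separation was seen in 1.45% of all probe sets. The fifth probe set, with both means below 7.16, differed by -1.17 and did not pass (limma adjusted p = 0.107).

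Within batch A the 5 SESN1 differences lay between -1.59 and -1.45. Of these 3 passed, including the dim one with both means below 7.16, while the chosen probe set did not (-1.45 ± 0.35, SE, limma adjusted p = 0.0627). At the chosen probe set the call was lost in 10 of the 13 fits that left out 1 tumour, that is without any of the 5 metastatic tumours or without NM3, NM4, NM5, NM6 or NM8, with values from -1.41 to -1.04. At the 3 other called probe sets it was kept in 13, 12 and 9 of 13 fits. Quantile normalization ended the call at the chosen probe set (-1.12, limma adjusted p = 0.0808), as did the ACTB covariate (-1.36, adjusted p = 0.0575).

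The related sestrin SESN2 did not pass the test. It was at 6.91, 6.76, 7.18, 6.93 and 6.79 in MET1 to MET5, and ran from 5.89 through a median of 6.60 to 7.19 in non-metastatic tumours. The metastatic values lay inside the non-metastatic range. The difference was 0.31 ± 0.21 (SE, limma adjusted p = 0.362), and its 95% interval ran from -0.13 to 0.76. Within batch A it was 0.14. The 3 tumours of batch B, with NM5, had the lowest values, from 5.89 to 6.34. Both group means lay below 7.16. SESN3, the remaining sestrin, differed by 0.21 and did not pass (limma adjusted p = 0.664).

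TP53INP1 was read by 1 probe set and also fell. It was at 6.07, 6.21, 6.35, 6.68 and 6.06 in MET1 to MET5 and ran from 6.32 through a median of 6.95 to 7.13 in non-metastatic tumours. All non-metastatic tumours but NM2 lay above the highest metastatic one, MET4. The means were 6.27 ± 0.26 (SD, n = 5) and 6.87 ± 0.27 (n = 8), a fall of 0.59 ± 0.16 (SE, limma adjusted p = 0.0458). Neither mean was above 7.16, and all values lay under it. At that level neither the size nor the direction is a sure reading of TP53INP1 RNA.

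Within batch A the TP53INP1 difference kept its direction, at -0.64 ± 0.15 (SE), and did not pass (limma adjusted p = 0.0547). The call was kept in 2 of the 13 fits that left out 1 tumour, those without MET4 (-0.69) and without NM2 (-0.67). It was lost without any other single tumour and was also lost after quantile normalization (-0.65, limma adjusted p = 0.0507) and with the ACTB covariate (-0.49, adjusted p = 0.069).

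BAX, the apoptotic effector among the 6, did not pass. Its values were 7.70, 7.66, 8.11, 8.89 and 8.50 in MET1 to MET5, a wider spread than the 8.11 to 8.27 of the 4 non-metastatic tumours of batch A. Over all non-metastatic tumours it ran from 8.11 through a median of 8.21 to 9.13. The difference was -0.20 ± 0.23 (SE, 95% interval -0.70 to 0.30, limma adjusted p = 0.614) and was 0.0045 within batch A. It moved from -0.0725 without MET2 to -0.38 without MET4. Its other probe set differed by -0.11.

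**Figure D3:**
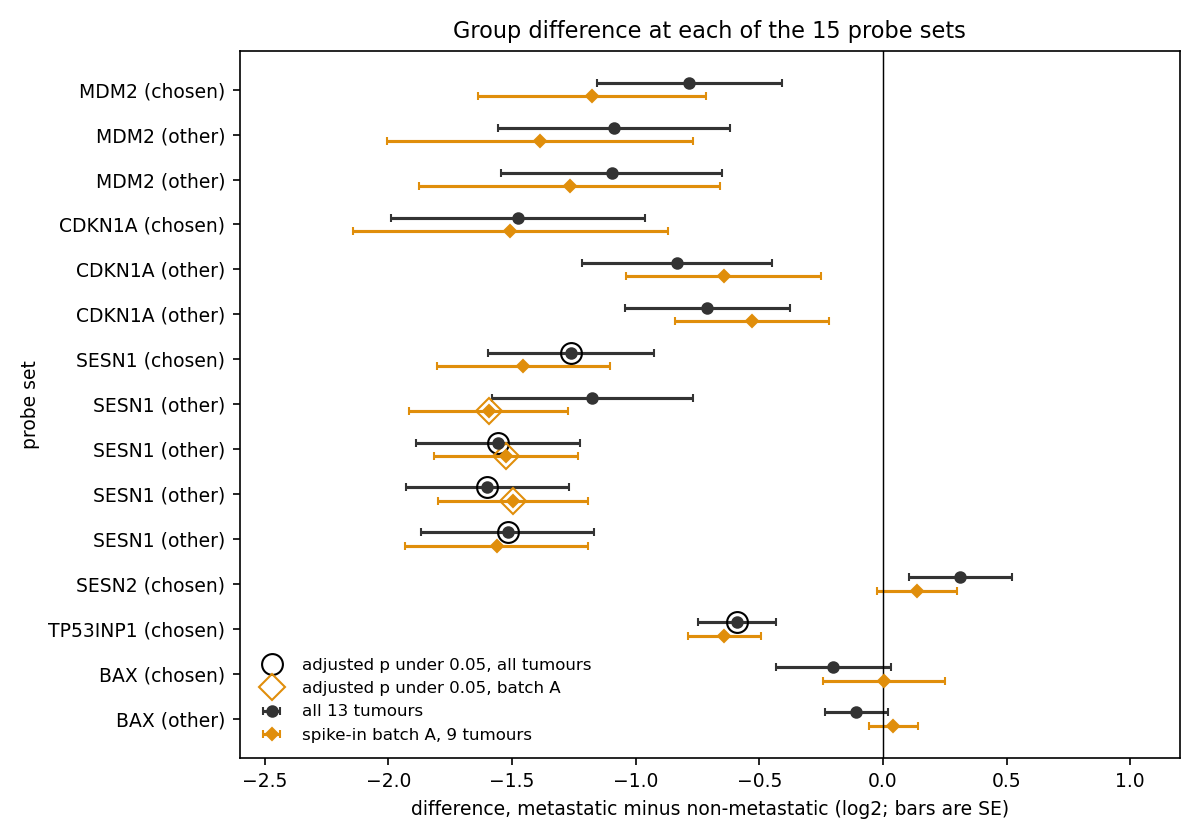
Difference in log2 level, metastatic minus non-metastatic, with its SE at each of the 15 probe sets, over all 13 tumours (circles) and within spike-in batch A (diamonds), where an outer ring marks an adjusted p under 0.05. SESN1 differences lie between -1.60 and -1.17 over all tumours, and MDM2 and CDKN1A differences are negative at every probe set without passing.

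The metastatic tumours did not share one order across these genes. MET4 had the highest CDKN1A (11.11), TP53INP1 (6.68) and BAX (8.89) of the 5 but the lowest SESN1 (7.74). MET1 and MET2 had the lowest CDKN1A and BAX, with SESN1 at 8.95 and 9.07. In NM7, the tumour with the highest MDM2, CDKN1A was 11.33, TP53INP1 6.89 and SESN1 9.22. CDKN1A there was second only to NM4, and SESN1 was lower only in NM1 among non-metastatic tumours.

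MDM2 was set against each of the other 5 genes over the 13 tumours. Ranks were related for TP53INP1 (Spearman's rho = 0.77, permutation p = 0.00288, adjusted over the 5 relations 0.0144), CDKN1A (rho = 0.69, permutation p = 0.0116, adjusted 0.029) and SESN1 (rho = 0.64, permutation p = 0.0219, adjusted 0.0365). Pearson's r was 0.56 for TP53INP1 (permutation p = 0.0279), 0.56 for CDKN1A (permutation p = 0.0487) and 0.27 for SESN1 (permutation p = 0.383), and 0 of the 5 passed after adjustment (0.122, 0.122 and 0.638). All 13 TP53INP1 values lay under 7.16, where levels cannot be told apart from those of probe sets without a target. SESN2 (r = -0.02, rho = -0.29, permutation p = 0.943 and 0.334) and BAX (r = 0.11, rho = 0.01, permutation p = 0.699 and 0.975) showed no such relation that passed.

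The linear value for SESN1 rested on the extreme tumours, while that for CDKN1A hardly moved. Without the 2 tumours farthest from the median of MDM2, MET1 and NM7, r was 0.74 for TP53INP1 (permutation p = 0.0122, adjusted 0.0305), 0.81 for SESN1 (permutation p = 0.00315, adjusted 0.0158) and 0.55 for CDKN1A (permutation p = 0.0767, adjusted 0.128). Within batch A (n = 9) rho was 0.80 for TP53INP1 (exact permutation p = 0.0138, adjusted 0.043), 0.78 for SESN1 (exact permutation p = 0.0172, adjusted 0.043) and 0.53 for CDKN1A (exact permutation p = 0.148), while r was 0.62, 0.26 and 0.60 and did not pass. Within the non-metastatic group (n = 8) rho was 0.57, 0.33 and 0.76 (exact permutation p = 0.151, 0.428 and 0.0368), and 0 passed after adjustment (0.378, 0.713 and 0.184). The values over all tumours include the difference between the groups.

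**Figure D4:**
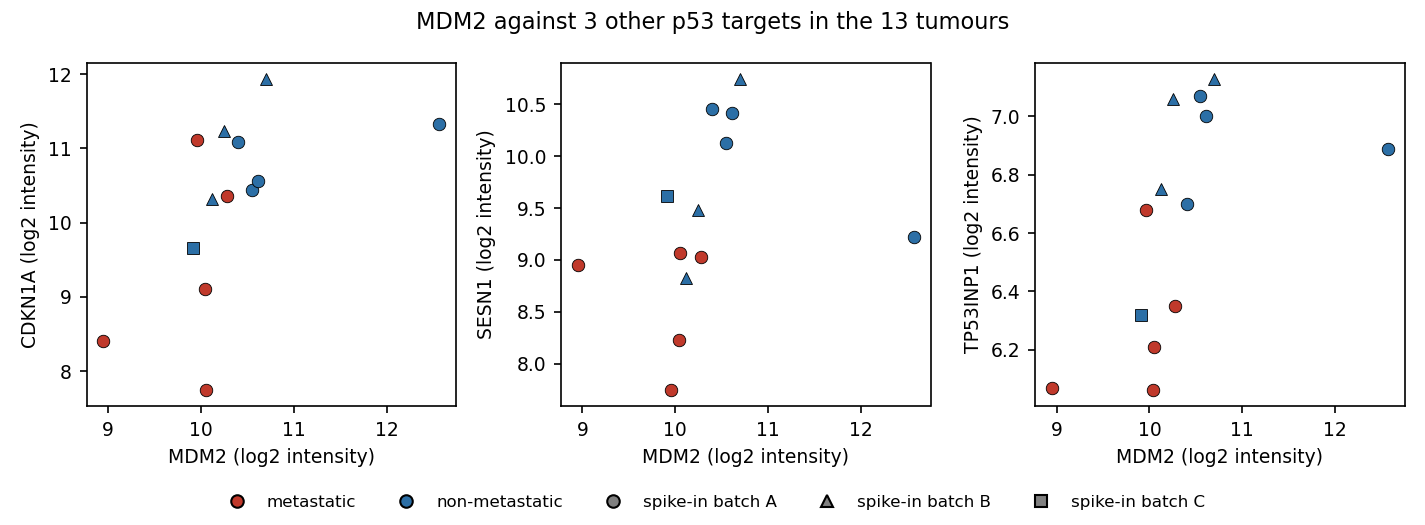
Log2 intensity of CDKN1A, SESN1 and TP53INP1 against that of MDM2 in each of the 13 tumours, coloured by group, with the marker shape giving the spike-in batch. NM7, at an MDM2 level of 12.57, lies apart from the other 12 tumours in each panel.

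The named genes whose levels over the 13 tumours were most like those of MDM2 were RAP1B (r = 0.89), RTN2 (0.87), ZFYVE21 (0.87), LACTB2 (0.87) and ANXA3 (0.86). RAP1B, a small GTPase, lies 3 genes from MDM2, and all 5 were highest in NM7. Without NM7 these correlations were 0.65, 0.74, 0.62, 0.84 and 0.80. The genes most like TP53INP1, the gene with the smallest p at the chosen probe sets, were DYNLT3 (0.95), PRIMPOL (0.95), DIP2B (0.95), LGR4 (0.95) and AUH (0.95), each of which was also lower in metastatic tumours (limma adjusted p from 0.00654 to 0.0386). These values describe 13 arrays that share the group difference.

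Of the proteins that control p53, 17 of 22 listed symbols were measured, 1 fell and 0 rose, with a median difference of 0.05. That is near the share of all probe sets called (4.9%), so the count says nothing about the list. The one that fell was RCHY1 (Pirh2), a ubiquitin ligase that, like MDM2, targets p53 for destruction. RCHY1 was at 8.77, 8.87, 9.39, 9.22 and 9.25 in MET1 to MET5 and at 9.81 to 10.41 (median 10.19) in non-metastatic tumours, with no overlap between the groups. The difference was -1.05 ± 0.15 (SE, limma adjusted p = 0.0028), and -1.01 within batch A (adjusted p = 0.0138). Its other probe set also fell (-1.13, limma adjusted p = 0.0187). Without batch B the first still passed (-0.95, limma adjusted p = 0.0323) and the other did not (-0.83, adjusted p = 0.108). COP1, another ligase of p53, differed by 0.38 and did not pass (limma adjusted p = 0.079). Its other probe set differed by -0.07 and did not pass either (limma adjusted p = 0.839). MDM4, the partner of MDM2 in restraining p53, differed by -0.18 and did not pass (limma adjusted p = 0.464), with neither mean above 7.16. COP1 and MDM4 were picked out after their values were seen.

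Among other p53 targets, 34 of 40 listed symbols were measured, 1 fell and 0 rose, and the median difference was 0.11, with 21 positive and 13 negative differences. The share called lower over all probe sets was 3.34%, so this count too is near the background. The one that fell was FBXW7, the substrate receptor of a ubiquitin ligase that destroys cyclin E and MYC. It was at 7.48, 7.22, 7.59, 7.09 and 7.61 in MET1 to MET5 and ran from 7.75 in NM2 through a median of 9.20 to 9.60 in non-metastatic tumours, again with no overlap. The FBXW7 difference was -1.70 ± 0.26 (SE, limma adjusted p = 0.00426), and -1.86 within batch A (adjusted p = 0.00211). Without batch B it did not pass (-1.56, limma adjusted p = 0.0586). Of its other 2 probe sets 1 fell (-1.40, adjusted p = 0.0169) and the other did not pass (-0.08). ANKRA2, another gene of the list, passed within batch A at its chosen probe set (-0.84, limma adjusted p = 0.0376) but not over all tumours (-0.43, adjusted p = 0.26). Of its other 4 probe sets 2 passed over all tumours (-1.01 and -0.69, limma adjusted p = 0.0171 and 0.0373).

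The BCL2 family, the regulators of BAX, had 11 of 13 genes measured, of which 0 passed. At the chosen probe sets 9 had positive differences, with a median of 0.31. Other probe sets of BAK1 (-0.07), BCL2 (-0.07), BCL2L1 (-0.13), BCL2L2 (-0.12 and -0.20) and BMF (-0.07) had negative differences, and that of BCL2A1 was positive (0.83). For 3 of the 11 genes neither group mean was above 7.16. Nearest to passing were MCL1, which restrains BAX and BAK1 (-0.87, limma adjusted p = 0.0808), the effector BAK1 (0.52, adjusted p = 0.11) and BAD (-0.44, adjusted p = 0.131). Of 12 stress genes related to the sestrins, GADD45A and the integrated stress response, 0 passed and the median difference was -0.09. With 4.9% of all probe sets called, a count of 0 says nothing about either list. ATF3 differed by 0.55, DDIT4, an inhibitor of mTORC1, by -0.73 and PPP1R15A by -0.33 (limma adjusted p = 0.137, 0.225 and 0.298). GADD45B and GADD45G, the relatives of GADD45A, differed by -0.61 and -0.37 and did not pass.

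**Figure D5:**
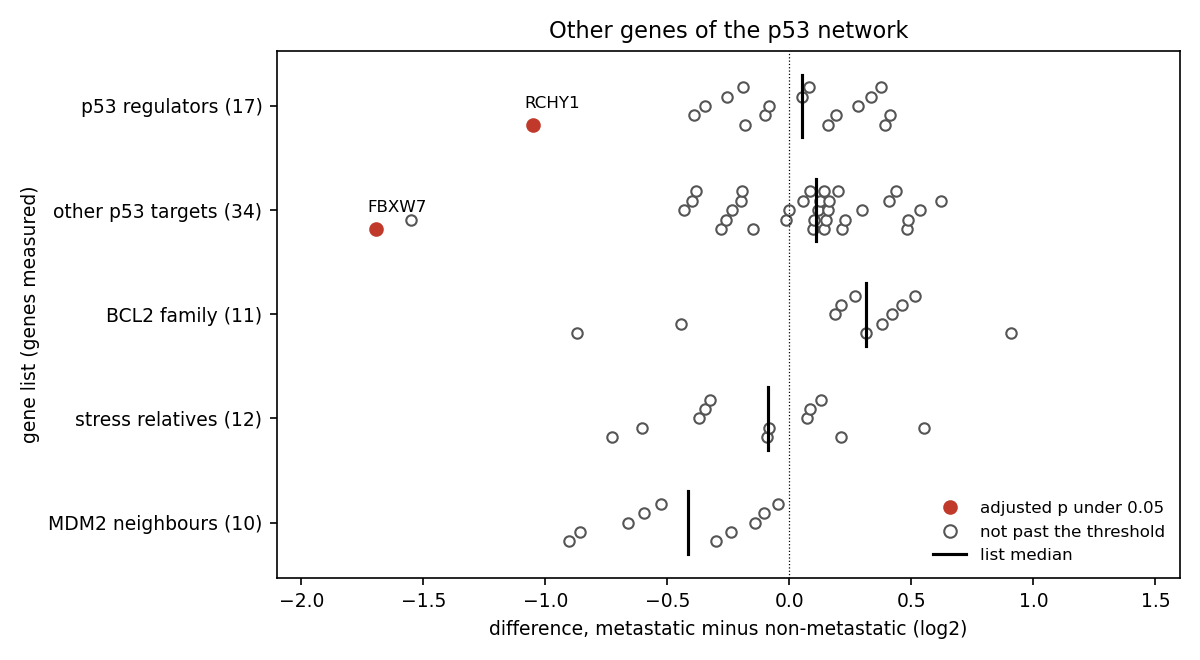
Difference in log2 level, metastatic minus non-metastatic, of each measured gene in 5 lists, 1 point per gene, filled where the adjusted p is under 0.05, with a bar at the list median. RCHY1 (-1.05) and FBXW7 (-1.70) are the only filled points, and the list of MDM2 neighbours has a median of -0.42, which is -0.15 without NM7.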

How the data were processed

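The authors deposited 1 table of processed values per probe set and array, read here as log2 intensities from their range of 0 to 14.33; for software, background correction and normalization the sources used here give nothing. Per the labels' protocols, biotin was introduced by 1 cycle of 3′ in vitro transcription for an Affymetrix canine array. Values were used as deposited. Of 43035 probe sets, 111 controls were left out of the tests. Symbols came from the platform annotation, and the gene identifiers of all 15 probe sets were found in RefSeq. Groups came from sample titles.

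All probe sets were fitted with limma 3.58.1 (lmFit, eBayes, R 4.3.3), with a group term alone. Two-sided p-values were adjusted over 42924 probe sets (Benjamini-Hochberg, threshold 0.05), and the fit was repeated within batch A (9 arrays). Batches were set from 36 spike-in probe sets: a mean 3′ signal under 6 gave batch B, and a 3′ minus 5′ difference above 2 gave batch C. The fit was tested on simulated data. Correlations used two-sided permutation tests (100000 resamples, exact for fewer than 10 arrays) in Python 3.11.15 with scipy 1.17.1. Each gene was read at the probe set with the highest mean over the arrays. Of each list, genes past the threshold were named, otherwise the 3 of smallest p. Genes of the stretch around MDM2 and ANKRA2, COP1, MDM4, GADD45B, GADD45G and SESN3 were named outside that rule, and the stretch was bounded after its values were seen. In the lists, RFWD2 and WIG1 are older symbols of COP1 and ZMAT3. The genes and lists were chosen with earlier results of these data known. Alternatives covered scaling, filtering, batch, RNA integrity, probe set choice and left-out tumours. The number of arrays limits the precision.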

Additional observations from a re-analysis of the deposited data

Results flagged for a closer look

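Among 30 sets of values examined (15 probe sets in 2 groups), 5 held a value that stood apart, 4 of them of MDM2. Chance sets apart about 1 in 20 independent groups, but these are not independent: 3 of the 5 are the same tumour read by MDM2 probe sets that correlate at 0.95 to 0.99. In the non-metastatic group NM7 was far above the other tumours at all 3 MDM2 probe sets, at 12.57 (others 9.91 to 10.70), 12.25 (others 8.90 to 10.21) and 11.87 (others 8.79 to 9.91). In the metastatic group MET1 was far below the others at the chosen MDM2 probe set, at 8.95 (others 9.96 to 10.28). BAX at its second probe set was set apart in MET4, at 8.40 against 8.07 to 8.15 in the other metastatic tumours.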

How the results depend on the processing

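The differences of MDM2, CDKN1A, SESN1, SESN2 and TP53INP1 kept their direction under every alternative over all tumours. The number of the 6 genes called was 2 and became 0 with quantile normalization, with the ACTB covariate, within batch A and without batch B. It became 1 with the batch as a block (TP53INP1), with the replicate block (CDKN1A) and with the filter on low values (SESN1), which leaves out SESN2 and TP53INP1, and it ran from 0 to 2 when 1 tumour was left out. SESN1 at its chosen probe set did not pass with quantile normalization (-1.12), the ACTB covariate (-1.36), within batch A and with batch as a block (both -1.45) or without batch B (-1.37), and leaving out 1 tumour gave -1.41 to -1.04. TP53INP1 did not pass with quantile normalization (-0.65), the covariate (-0.49), within batch A (-0.64) or without batch B (-0.52), and leaving out 1 tumour gave -0.69 to -0.54. When 1 tumour was left out CDKN1A ran from -1.92 to -1.07 and passed without MET4; the mean of all its probe sets gave -1.01. BAX was at 0.0045 within batch A and with batch as a block. Within batch A, leaving out 1 tumour gave -1.73 to -1.24 for SESN1, -0.74 to -0.59 for TP53INP1, -0.0227 to 0.23 for SESN2 and -0.18 to 0.13 for BAX; SESN1 passed there without NM7 and TP53INP1 without MET4. The cause of these changes was not tested.

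The replicate numbers do not pair the tumours (correlations of deviations from -0.01 to 0.08 for the 5 shared numbers), and with the replicate block CDKN1A passed (-1.37) while SESN1 (-1.16) and TP53INP1 (-0.59) did not. Called regulators of p53 were 2 with quantile normalization and 1 to 2 without 1 tumour. Called genes among other p53 targets were 2 with batch as a block, within batch A, with the filter and with the mean of all probe sets, 0 without batch B, and 1 to 3 without 1 tumour, and called stress genes were 0 to 1, each highest without NM2. The correlation of MDM2 with SESN1 was 0.81 without the 2 farthest tumours and -0.13 within the non-metastatic group. That with TP53INP1 was 0.74 without the 2 farthest and 0.73 without NM7. With SESN2 it was -0.52 without the 2 farthest tumours, -0.43 without NM7, 0.14 within batch A and 0.23 within the non-metastatic group, and with BAX -0.22 there. The fit without batch B, the median of the MDM2 neighbours without NM7, the fits within batch A without 1 tumour, and the correlations without NM7 and within the non-metastatic group were added after seeing the data.
Over all probe sets 2104 were called, against 1192 within batch A, 1367 with the covariate, 733 with the replicate block, 207 without batch B and 856 (without MET1) to 4478 (without NM2) when 1 tumour was left out.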
